A study of Homo sapiens with 8 samples.

Results

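Interferon-stimulated genes other than the IFIT family were followed in SKBR3 cells across 8 expression arrays. SKBR3 is a human breast cancer cell line with an amplified HER2 gene, used as a model without estrogen receptor alpha but with GPER, an estrogen-binding receptor of cell membranes. The genes were chosen by name: 37 symbols were listed, and 36 of them had at least one probe set (a group of array probes for a transcript) annotated to that gene alone, out of 19775 genes measured. They covered 61 probe sets, and 18 of the 36 genes had 1 probe set each. STAT2 had no probe set annotated to it in the tables used and is not analysed here, and the listed symbol DDX58 appears under its current name RIGI.

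Each array held RNA of cells treated for 3 h, after 4 h in 10% serum that charcoal had cleared of most steroids, and each condition had 1 array. One array came from untreated cells and one from cells given 0.1% ethanol, named in the labels as the vehicle of estradiol. Others came from cells given 1e-06 M of bovine serum albumin (BSA), of estradiol, or of E2-BSA, a conjugate of the hormone with that protein. The GPER antagonist G15 was given alone at 1e-05 M, and E2-BSA at 1e-06 M was also combined with ICI or with G15, each at 1e-05 M. ICI is known from the labels by this abbreviation only. No condition was repeated, all arrays came from 1 cell line, and no value below has a replicate error or a test. ICI is seen here only together with E2-BSA.

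Interferon-stimulated genes are the transcripts by which cells answer type I and type III interferons. The receptors activate the kinases JAK1 and TYK2, and a complex that contains IRF9 then binds the interferon-stimulated response element (ISRE) in promoters. Many of the genes are also held at a low level without added interferon, and some, IRF1 among them, can be induced by NF-kB. Their products sense viral RNA, block translation or viral entry, and attach the ubiquitin-like protein ISG15 to other proteins.

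Promoter sequences show how far the genes share this element. RefSeq windows from 250 bases before to 50 bases after the start (GRCh38.p14) were found for 30 of the 36 genes. The ISRE core, GAAA and again GAAA with any 2 bases between them, was searched on both strands. It was present in at least one window of 20 of the 30 genes (66.7%), against 613 of 15384 genes on the array with a window (3.98%). By window the shares were 24 of 41 (58.5%) and 3.02%. The gamma-activated site TTCNNNGAA, which reads the same on both strands and can share bases with a core, was present in 10 of the 30 genes (33.3%) against 8.97%. These genes are known interferon targets, so the shares describe the group and were not tested. The 10 genes whose windows held no core were CMPK2, HERC6, IFI35, IRF1, IRF9, OAS1, RIGI, SAMD9L, UBE2L6 and XAF1, and a missing match says only that these letters are not in the window. No window was found in the table for OAS2, OASL, MX2, IRF7, USP18 and TRIM22.

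The following windows belong to genes described below, and ISRE cores are in capitals. IFI27, IFI6 and IFITM1 were highest on the BSA array, SAMD9 had the widest range apart from IFI27 when the ethanol array was left aside, IFIH1 was high with ethanol, and the window of DTX3L overlaps one of PARP9. In IRF1, the gene of the 36 that differed most between ethanol and untreated cells, the capitals mark the gamma-activated site. All are written 5′ to 3′ on the strand of the gene.
IFI27, chr14:94110486-94110785, plus strand: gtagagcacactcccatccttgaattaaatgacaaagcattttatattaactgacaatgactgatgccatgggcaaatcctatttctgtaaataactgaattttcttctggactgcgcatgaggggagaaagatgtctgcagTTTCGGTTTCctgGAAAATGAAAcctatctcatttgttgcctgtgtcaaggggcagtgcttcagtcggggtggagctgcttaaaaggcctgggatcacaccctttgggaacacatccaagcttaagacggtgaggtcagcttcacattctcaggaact
IFI6, chr1:27672143-27672442, minus strand: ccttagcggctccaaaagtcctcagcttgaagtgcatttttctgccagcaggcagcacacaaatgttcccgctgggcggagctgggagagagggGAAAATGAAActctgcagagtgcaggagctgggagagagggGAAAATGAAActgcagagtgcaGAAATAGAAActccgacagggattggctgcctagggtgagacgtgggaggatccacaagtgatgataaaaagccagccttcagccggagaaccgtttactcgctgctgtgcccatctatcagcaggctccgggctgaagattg
IFITM1, chr11:313790-314089, plus strand: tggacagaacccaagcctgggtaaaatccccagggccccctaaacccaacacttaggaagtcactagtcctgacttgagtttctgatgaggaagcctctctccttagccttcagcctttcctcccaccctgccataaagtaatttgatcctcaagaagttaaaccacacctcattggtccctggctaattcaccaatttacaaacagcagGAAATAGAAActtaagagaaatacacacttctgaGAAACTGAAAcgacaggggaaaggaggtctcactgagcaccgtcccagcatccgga
SAMD9, chr7:93117930-93118229, minus strand: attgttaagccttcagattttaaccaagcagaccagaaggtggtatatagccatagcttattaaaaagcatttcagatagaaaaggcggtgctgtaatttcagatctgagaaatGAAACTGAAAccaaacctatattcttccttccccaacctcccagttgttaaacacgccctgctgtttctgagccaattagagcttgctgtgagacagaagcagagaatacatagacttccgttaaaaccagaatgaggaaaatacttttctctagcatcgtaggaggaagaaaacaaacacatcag
IFIH1, chr2:162318635-162318934, minus strand: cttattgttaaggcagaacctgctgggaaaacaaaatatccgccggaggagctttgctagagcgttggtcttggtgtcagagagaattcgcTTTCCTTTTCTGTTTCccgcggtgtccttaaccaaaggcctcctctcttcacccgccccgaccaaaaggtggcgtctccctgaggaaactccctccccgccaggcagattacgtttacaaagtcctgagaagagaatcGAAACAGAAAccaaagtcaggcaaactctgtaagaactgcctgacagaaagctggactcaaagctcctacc
DTX3L, chr3:122564088-122564387, plus strand: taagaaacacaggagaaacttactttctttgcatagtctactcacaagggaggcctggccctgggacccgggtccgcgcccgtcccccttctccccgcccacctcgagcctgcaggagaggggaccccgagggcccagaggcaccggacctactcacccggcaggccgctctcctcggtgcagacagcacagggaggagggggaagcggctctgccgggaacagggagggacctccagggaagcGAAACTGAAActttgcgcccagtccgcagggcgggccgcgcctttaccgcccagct
IRF1, chr5:132490724-132491023, minus strand: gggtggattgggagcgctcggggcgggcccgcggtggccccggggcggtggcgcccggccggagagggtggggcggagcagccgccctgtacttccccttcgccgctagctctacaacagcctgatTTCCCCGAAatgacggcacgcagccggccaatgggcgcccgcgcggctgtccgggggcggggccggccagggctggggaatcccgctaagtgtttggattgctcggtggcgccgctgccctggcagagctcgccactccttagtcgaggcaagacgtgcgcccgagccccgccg

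In IFI27 the cores begin 108 and 95 bases before the start, and in IFI6 they begin 156, 115 and 93 bases before it. IFITM1 has cores that begin 40 and 6 bases before the start, and SAMD9 has 1 that begins 136 bases before it. In IFIH1 the cores begin 159, 153 and 21 bases before the start, the first pair reading on the opposite strand. DTX3L and PARP9 are transcribed away from each other, a window of each shares 137 bases with the other, and the same core, at chr3:122564332-122564341, lies in both. CMPK2 and RSAD2 form a second such pair whose windows share 165 bases, which hold no core. The site in IRF1 begins 124 bases before the start.

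The values were taken to be on a log2 scale, although no label names the base. In every probe set at most 4 arrays lie above 0 and at most 4 below, as after centring each probe set on a median, so that absolute levels cannot be read and genes cannot be ranked by level. For the same reason the 8 epithelial and HER2-amplicon genes checked, such as ERBB2 and KRT18, could not show whether the cells carry their defining transcripts. A value of 0.00 means that the array stood at the centre for that gene. Each gene is the mean of its probe sets, a difference is the value of one array minus that of another, and differences of at least 0.585 in size (1.5-fold) are counted. The SD over all genes was 0.166 in BSA minus untreated and 0.304 in ethanol minus untreated.

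The 36 genes had wider ranges between arrays than all genes, which was not tested. They were listed with earlier results of these data known, and all genes include those of low level, which could not be filtered out. The median range of the 36 over the 8 arrays was 0.55, beside 0.34 for all genes, and 17 of them (47.2%) had a range of at least 1.5-fold, beside 13.5% of all genes. Without the ethanol array the shares were 33.3% and 6.09%. The other 19 genes had ranges between 0.15 and 0.56. The array of E2-BSA plus ICI held the lowest of the 8 values for 15 of the 36 genes (41.7%), beside 12.2% of all genes. The ethanol array held the highest value for 13 (36.1%, beside 19.5%) and the BSA array for 11. Without the ethanol array, BSA held the highest value for 15 genes (41.7%, beside 12.5%) and E2-BSA for 13 (36.1%, beside 22.8%).

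**Figure D1:**
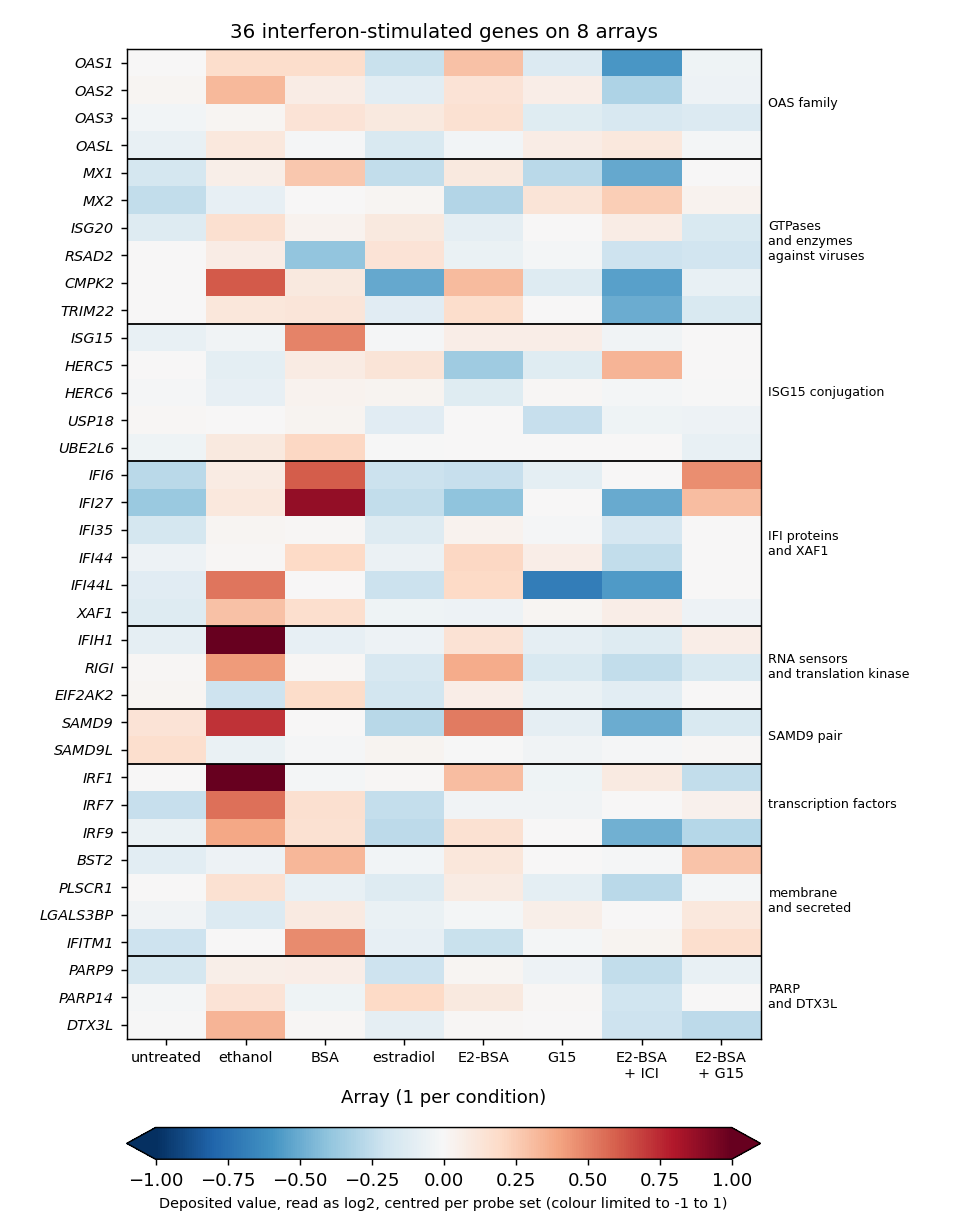
Deposited values (read as log2, centred per probe set) of the 36 genes, in rows grouped by role, on the 8 arrays, in columns, with colour limited to -1 to 1. The ethanol column holds the highest value in 13 rows, the BSA column in 11, and the column of E2-BSA plus ICI the lowest in 15; IRF1 (3.69) and IFIH1 (1.12) on ethanol lie beyond the colour range.

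As means of their probe sets, the RNA sensors were highest with ethanol. IFIH1 encodes MDA5, a cytoplasmic sensor of long double-stranded RNA, and stood at -0.09 untreated, 1.12 with ethanol, -0.08 with BSA, -0.05 with estradiol, 0.15 with E2-BSA, -0.09 with G15, -0.13 with E2-BSA plus ICI and 0.07 with E2-BSA plus G15. The ethanol array stood apart and the other 7 lay within 0.28 of each other. RIGI, which encodes the sensor RIG-I, stood in the same order at 0.01, 0.42, 0.01, -0.16, 0.37, -0.15, -0.25 and -0.15. As a mean it was high with ethanol and E2-BSA and lowest with ICI added. Its probe sets differed, being lowest with ICI added (-0.32), with estradiol (-0.31) and with E2-BSA plus G15 (-0.23). Those lowest with ICI or G15 added were higher with E2-BSA (0.29 and 0.44) than with ethanol (0.19 and 0.41). EIF2AK2, which encodes the translation-blocking kinase PKR, ranged over 0.39, from -0.21 with ethanol to 0.18 with BSA.

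Among the transcription factors, IRF1 differed most of all 36 genes. It stood at 0.00 untreated, 3.69 with ethanol, -0.02 with BSA, 0.01 with estradiol, 0.31 with E2-BSA, -0.04 with G15, 0.09 with E2-BSA plus ICI and -0.25 with E2-BSA plus G15. IRF7, the factor that amplifies type I interferon transcription, stood in that order at -0.23, 0.55, 0.16, -0.24, -0.04, -0.03, 0.00 and 0.05. IRF9, a DNA-binding part of that complex, stood at -0.07, 0.39, 0.16, -0.26, 0.15, 0.00, -0.48 and -0.28. All 3 were highest with ethanol, and IRF9 alone of them was lowest with E2-BSA plus ICI.

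The OAS family makes the oligoadenylate that activates the RNA-degrading enzyme RNase L, and OASL is its inactive relative that aids RIG-I. OAS1 stood at 0.00 untreated, 0.18 with ethanol, 0.18 with BSA, -0.22 with estradiol, 0.30 with E2-BSA, -0.14 with G15, -0.58 with E2-BSA plus ICI and -0.04 with E2-BSA plus G15. OAS2 stood in the same order at 0.02, 0.33, 0.07, -0.11, 0.13, 0.07, -0.31 and -0.05. As means of probe sets, OAS1, OAS2 and OAS3 were lowest on the array with ICI, whereas OASL was highest there, at 0.11, with a range of 0.26. Neither probe set of OAS3 was itself lowest there: they were lowest with G15 (-0.24) and with E2-BSA plus G15 (-0.21). For OAS2, 1 of its 3 probe sets stood at 0.00 with ICI added and was lowest with E2-BSA plus G15 (-0.32). For OASL, 1 of its 2 probe sets was highest with ethanol (0.21). The ethanol value of OAS2 came from 1 of its 3 probe sets, at 1.06, while the others stood at -0.07 and -0.003.

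SAMD9 and SAMD9L are neighbouring paralogs that restrict poxviruses and dampen translation, and they differed in how far they varied. SAMD9 stood at 0.14 untreated, 0.72 with ethanol, 0.00 with BSA, -0.28 with estradiol, 0.52 with E2-BSA, -0.09 with G15, -0.49 with E2-BSA plus ICI and -0.15 with E2-BSA plus G15. Both of its probe sets ran in parallel, from 0.89 and 0.56 with ethanol to -0.51 and -0.48 with ICI added. SAMD9L had a range of 0.23 and was highest in untreated cells, at 0.17.

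CMPK2, a mitochondrial nucleotide kinase, stood at 0.00 untreated, 0.61 with ethanol, 0.10 with BSA, -0.51 with estradiol, 0.32 with E2-BSA, -0.13 with G15, -0.54 with E2-BSA plus ICI and -0.07 with E2-BSA plus G15. The low values were those with free estradiol and with ICI added, and the high ones ethanol and E2-BSA. MX1, a GTPase that traps viral nucleocapsids, stood in that order at -0.17, 0.06, 0.27, -0.25, 0.10, -0.27, -0.51 and 0.00. TRIM22, an antiviral ubiquitin ligase, stood at 0.00, 0.11, 0.12, -0.12, 0.18, 0.00, -0.50 and -0.15. Both shared the low value with ICI. MX2, which blocks nuclear entry of HIV, was instead highest there (0.24) and lowest with E2-BSA (-0.29). RSAD2, which encodes viperin and neighbours CMPK2, was lowest with BSA, at -0.39, and the exonuclease ISG20 ranged over 0.31.

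The small IFI proteins showed another order of arrays. IFI27, a mitochondrial and nuclear envelope protein, stood at -0.37 untreated, 0.10 with ethanol, 0.88 with BSA, -0.24 with estradiol, -0.40 with E2-BSA, 0.00 with G15, -0.50 with E2-BSA plus ICI and 0.31 with E2-BSA plus G15. IFI6, which protects mitochondria from apoptosis, stood in that order at -0.27, 0.09, 0.60, -0.22, -0.23, -0.10, 0.00 and 0.46. BSA was highest for both and E2-BSA plus G15 came next. IFI44L, by contrast, stood at -0.11, 0.54, 0.00, -0.21, 0.20, -0.69, -0.56 and 0.00, with ethanol highest and G15 alone lowest. IFI44 ranged over 0.46 and IFI35 over 0.21. For XAF1, a proapoptotic partner of XIAP, the 3 probe sets disagreed: ethanol minus untreated ran from -0.13 to 1.31 among them.

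Proteins of the cell surface and the secreted ones partly followed IFI27. IFITM1, which blocks fusion of viral and cell membranes, stood at -0.21 untreated, 0.00 with ethanol, 0.47 with BSA, -0.08 with estradiol, -0.22 with E2-BSA, -0.02 with G15, 0.02 with E2-BSA plus ICI and 0.17 with E2-BSA plus G15. BST2, or tetherin, was likewise highest with BSA (0.33) and next with E2-BSA plus G15 (0.29). PLSCR1, a phospholipid scramblase, was lowest with ICI added (-0.27) as a mean, but its probe sets disagreed there, at -0.44, -0.51 and 0.14. The secreted glycoprotein LGALS3BP ranged over 0.24.

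In the ISG15 pathway the modifier and its ligase HERC5 differed in their order of arrays. ISG15 stood at 0.49 with BSA and between -0.07 and 0.06 on the other 7 arrays. HERC5, its main ligase, stood at 0.00 untreated, -0.10 with ethanol, 0.09 with BSA, 0.13 with estradiol, -0.36 with E2-BSA, -0.12 with G15, 0.34 with E2-BSA plus ICI and 0.00 with E2-BSA plus G15, an order opposite to that of SAMD9 (Pearson r = -0.774 over the 8 arrays). The conjugating enzyme UBE2L6 was highest with BSA, at 0.21, as ISG15 was (r = 0.805 between them). UBE2L6, the deconjugating protease USP18 and HERC6 had ranges of 0.29, 0.26 and 0.15.

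PARP9 and DTX3L form a complex of an ADP-ribosyltransferase-like protein and a ubiquitin ligase, and PARP14 is a related ADP-ribosyltransferase. DTX3L stood at 0.00 untreated, 0.34 with ethanol, 0.01 with BSA, -0.09 with estradiol, 0.01 with E2-BSA, 0.00 with G15, -0.21 with E2-BSA plus ICI and -0.27 with E2-BSA plus G15. PARP9 (range 0.31) and PARP14 (range 0.40) were lowest with ICI added, at -0.24 and -0.20. Their probe sets differed there: those of PARP9 stood at -0.52 and 0.03, and those of PARP14 at -0.41 and 0.00. PARP9, which has a second window that does not overlap that of DTX3L, was at 0.07 with BSA and 0.06 with ethanol, and DTX3L was highest with ethanol.

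**Figure D2:**
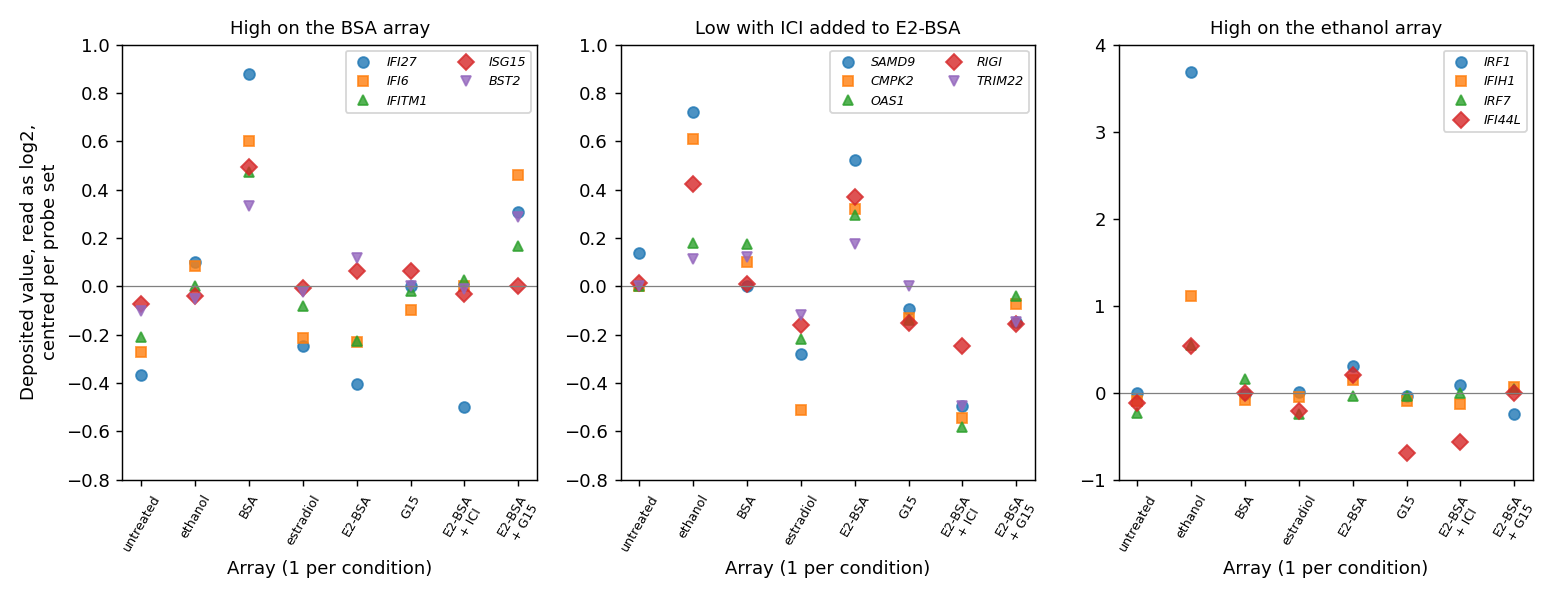
Deposited values (read as log2, centred per probe set) of 14 of the genes on each of the 8 arrays, 1 point per array, with a wider vertical scale in the right panel. IFI27 stands at 0.88 with BSA in the left panel, SAMD9 and OAS1 at -0.49 and -0.58 with E2-BSA plus ICI in the middle one, and IRF1 at 3.69 with ethanol in the right one.

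The first comparison addressed the ethanol vehicle. Of the 36 genes 5 were at least 1.5-fold higher with ethanol than in untreated cells (13.9%) and 0 lower, where 2.98% of all genes were higher and 0.723% lower. IRF1 was higher by 3.69 (12.9-fold), IFIH1 by 1.21 (2.31-fold), IRF7 by 0.78, IFI44L by 0.65 and CMPK2 by 0.61. SAMD9 lay just inside the limit at 0.584. The median over the 36 genes was 0.19, with 30 above 0, against -0.03 for all genes.

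Other genes of the pathway were high on the ethanol array too. Of 41 other interferon-induced genes measured, 9 were at least 1.5-fold higher, led by the chemokines CXCL10 (2.86) and CXCL11 (1.82) and the GTPases GBP2 (1.70) and GBP1 (0.96). The interferon gamma receptor chains IFNGR2 (0.83) and IFNGR1 (0.70) were higher, as were the Toll-like receptor adaptor TICAM1 (1.58) and TRAF3 (0.67). In antigen presentation TAP1 was higher by 0.89 and PSMB9 by 0.64. None of the 18 interferon genes reached 1.5-fold, and their median was -0.02. All 14 NF-kB targets were at least 1.5-fold higher, beside 2.98% of all genes, with a median of 2.68. Like the other lists here, they were chosen with earlier results of these data known. Their part in the values of the 36 genes was not tested. After quantile normalization IRF1 differed by 1.37 and IFIH1 by 0.62, and these 2 were the only genes left past 1.5-fold. With the most variable probe set of each gene, a choice made on these same arrays, there were 9.

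BSA, the carrier, was set against untreated cells. IFI27 was higher by 1.25 (2.38-fold), IFI6 by 0.87 (1.83-fold) and IFITM1 by 0.68 (1.61-fold), and ISG15 (0.56), BST2 (0.44) and MX1 (0.44) followed below 1.5-fold. These 3 of 36 genes (8.33%) stood beside 0.354% of all genes, and 0 were lower, beside 0.202%. The 3 genes, and ISG15, BST2 and MX1, each have 1 probe set of their own. The median was 0.14 with 29 genes above 0, against 0.00 for all genes. The rest of the pathway stayed nearer to 0: the 41 other interferon-induced genes had a median of -0.02 with 0 past 1.5-fold, antigen presentation 0.03 with 0, and the IFIT genes 0.05 with 0. Among the sensing adaptors IRF3 was higher by 0.59. With the probe set it shares with IFITM2, IFITM1 was higher by 0.54, no longer past 1.5-fold. RSAD2 (-0.39) lay farthest below 0.

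E2-BSA was compared with its carrier. IFI27 was lower by 1.28 (2.44-fold), IFI6 by 0.83 and IFITM1 by 0.70, 3 of the 36 genes (8.33%) beside 0.662% of all genes, and 0 were higher, beside 0.339%. These are the genes that were high on the BSA array, which both comparisons share. Against untreated cells they differed by -0.04, 0.04 and -0.02. With the probe set shared with IFITM2, IFITM1 differed from BSA by -0.56, no longer past 1.5-fold. SAMD9 (0.52), RIGI (0.36) and RSAD2 (0.33) lay farthest above 0 against BSA. The median of the 36 genes was -0.01 against BSA and 0.12 against untreated, where 28 of 36 were above 0 and 0 reached 1.5-fold in either direction, beside 0.111% of all genes higher and 0.238% lower.

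Free estradiol left the group near the untreated array. None of the 36 genes differed by 1.5-fold from untreated cells, beside 0.086% of all genes higher and 0.091% lower, and the median was -0.01 with 17 above and 19 below 0. CMPK2 (-0.51) and SAMD9 (-0.42) lay farthest below 0 and MX2 (0.27) farthest above. After quantile normalization 2 genes were past 1.5-fold, both lower. The labels record no amount of ethanol for the estradiol array. Against the ethanol array 7 genes were at least 1.5-fold lower (19.4%, beside 2.84% of all genes): IRF1 (-3.67), IFIH1 (-1.16), CMPK2 (-1.12), SAMD9 (-1.0004), IRF7 (-0.79), IFI44L (-0.75) and IRF9 (-0.65). None was higher, beside 0.566%. The comparison shares the ethanol array with the first one. Against BSA 3 genes were lower (8.33%, beside 0.288%): IFI27 (-1.13), IFI6 (-0.82) and CMPK2 (-0.61), and 0 were higher, beside 0.137%.

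Free and albumin-coupled estradiol differ by the albumin carrier, and possibly by ethanol, the vehicle named for estradiol. No ethanol amount is recorded for the estradiol array, so carrier and vehicle cannot be told apart here. Each form was given at a stated 1e-06 M. The labels do not say whether that figure counts the conjugate or its estradiol. In estradiol minus E2-BSA, CMPK2 was lower by 0.83 (1.78-fold) and SAMD9 by 0.80 (1.74-fold), 2 of 36 genes (5.56%) beside 0.111% of all genes, and 0 were higher, beside 0.273%. RIGI (-0.53) and OAS1 (-0.51) came next, and HERC5 lay above 0, at 0.49. The median was -0.13 with 25 of 36 genes below 0, against -0.01 for all genes. Of the IFIT genes 2 of 4 were lower by 1.5-fold or more, and of the 41 other interferon-induced genes 0. With no replicates no interval can be given for these differences. The median was -0.22 with the most variable probe set of each gene, chosen on these same arrays. After quantile normalization 4 genes were lower.

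**Figure D3:**
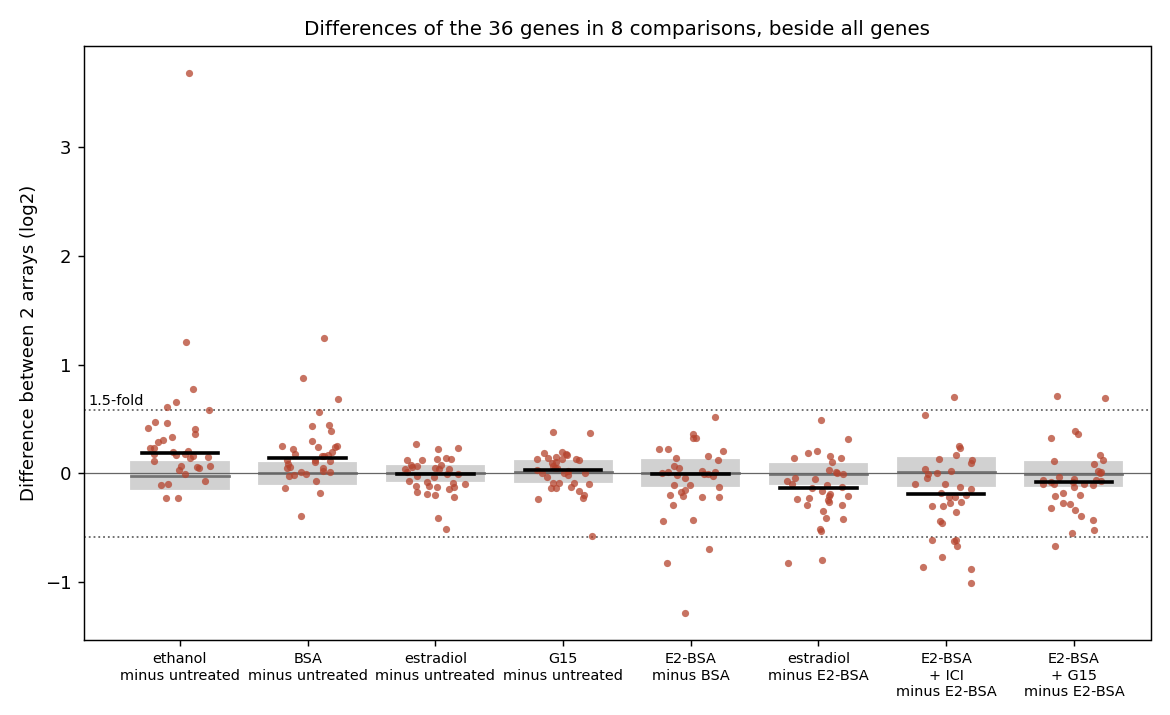
Differences in log2 between pairs of arrays in 8 comparisons: each red point is 1 of the 36 genes, the black line is their median, and the grey box and line are the quartiles and the median of all 19775 genes. The medians run from 0.19 (ethanol minus untreated) to -0.19 (E2-BSA plus ICI minus E2-BSA), and dotted lines mark 1.5-fold.

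G15 alone was compared with untreated cells. None of the 36 genes reached 1.5-fold, beside 0.364% of all genes higher and 0.167% lower, and the median was 0.03 with 21 above 0. IFI44L, at -0.579, lay just inside the limit and was the lowest of all arrays there. MX2 (0.38) and IFI27 (0.37) lay farthest above 0. The 4 IFIT genes measured were below 0, with a median of -0.22, and IRF3 was higher by 0.70.

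Of the 17 comparisons, the array of E2-BSA plus ICI set against E2-BSA held the most of the 36 genes past 1.5-fold in 1 direction. SAMD9 was lower by 1.02 (2.02-fold), OAS1 by 0.88 (1.84-fold), CMPK2 by 0.86 (1.82-fold), IFI44L by 0.77 and TRIM22 by 0.67, and IRF9 (-0.63), RIGI (-0.61) and MX1 (-0.61) were also past 1.5-fold. These 8 of 36 genes (22.2%) stood beside 0.566% of all genes. HERC5 was the 1 gene that was higher (0.70, 2.78% beside 1.03%), and MX2 followed at 0.53. The median was -0.19 with 25 of 36 genes below 0, against 0.01 for all genes. Both probe sets of OAS1 (-0.98 and -0.78), both of SAMD9 (-1.21 and -0.82) and all 3 of RIGI (-0.64 to -0.59) were lower. CMPK2, IFI44L, TRIM22, IRF9, MX1 and HERC5 each have 1 probe set of their own. Of the 18 genes with several probe sets, only 9 had all of them on the same side of 0 in this comparison. IRF9 differed by -0.35, no longer past 1.5-fold, when a probe set shared with RNF31 was added. After quantile normalization IRF9 (-0.57) and MX1 (-0.55) were below 1.5-fold.

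Part of this difference lay in the E2-BSA array, where several of these genes were high. Against untreated cells SAMD9 alone (-0.63) was lower by 1.5-fold, 1 of 36 genes (2.78%) beside 0.369% of all genes, 0 were higher, beside 0.501%, and OAS1 (-0.58) and CMPK2 (-0.54) came next. Against BSA 7 genes were lower (19.4%, beside 0.319%): IFI27 (-1.38), MX1 (-0.79), OAS1 (-0.76), CMPK2 (-0.64), IRF9 (-0.63), TRIM22 (-0.62) and IFI6 (-0.60). None was higher than with BSA, beside 0.425%. Among the other genes of the pathway against E2-BSA, 2 of the 4 IFIT genes were lower by 1.5-fold or more, with a list median of -0.74, and DDX60, a helicase that aids RIG-I, was the 1 of 41 other interferon-induced genes (-0.72). The negative regulators (median -0.03), the sensing adaptors (-0.01), antigen presentation (-0.05), the interferons (0.00) and the NF-kB targets (-0.02) held 0 genes past 1.5-fold.

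Genes that were low with ICI were found both with and without a core of the searched spelling in their windows. The search counted only repeats with 2 bases between them. The windows of OAS1, RIGI and CMPK2, counted below as without a core, hold the GAAA repeat on 1 of the strands with a single base between. Of the 20 genes with an ISRE core 3 were lower by 1.5-fold against E2-BSA, with a median of -0.20. Of the 10 without one 4 were lower, with a median of -0.21, beside 0.566% of all genes lower. Of those counted, MX1, with a core, and IRF9, without one, fell below 1.5-fold after quantile normalization. The 3 genes high on BSA all had cores, while the medians of BSA minus untreated were 0.16 with and 0.14 without a core. Neither split was tested.

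Adding G15 to E2-BSA gave differences in both directions. IFI27 was higher by 0.71 (1.64-fold) and IFI6 by 0.69 (1.61-fold), 2 of 36 genes (5.56%) beside 0.435% of all genes, and SAMD9 was lower by 0.67 (1.59-fold), 1 gene (2.78%) beside 0.359%. IRF1 (-0.55) and RIGI (-0.52) lay next below 0, and IFITM1 (0.39) and HERC5 (0.36) next above. The median was -0.08 with 24 genes below 0, against -0.01 for all genes. Against BSA 0 of 36 genes passed 1.5-fold in either direction (0.157% and 0.238% of all genes). IFI27, at -0.574, lay just inside the limit there, ISG15 (-0.49) and IRF9 (-0.44) came next below 0, and RSAD2 (0.20) lay farthest above. Against G15 alone IFI44L was higher by 0.69, 1 gene beside 0.131%, and 0 were lower, beside 0.359%. Against untreated cells IFI6 was higher by 0.73 and IFI27 by 0.67, 2 genes beside 0.273%, and 0 were lower, beside 0.197%. After quantile normalization 5 genes were past 1.5-fold against E2-BSA, 2 higher and 3 lower.

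ICI and G15 were each given at 1e-05 M with the same E2-BSA, and they were compared as the second pair of compounds. With ICI rather than G15 added, IFI27 was lower by 0.81 (1.75-fold), 1 of 36 genes (2.78%) beside 0.248% of all genes, and 0 were higher, beside 0.283%. IFI44L (-0.56), OAS1 (-0.54) and MX1 (-0.51) came next. The median was -0.13 with 27 of 36 genes below 0, against 0.02 for all genes. Without replicates no interval can be given, and the genes below 1.5-fold are not shown to be alike with both.

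**Figure D4:**
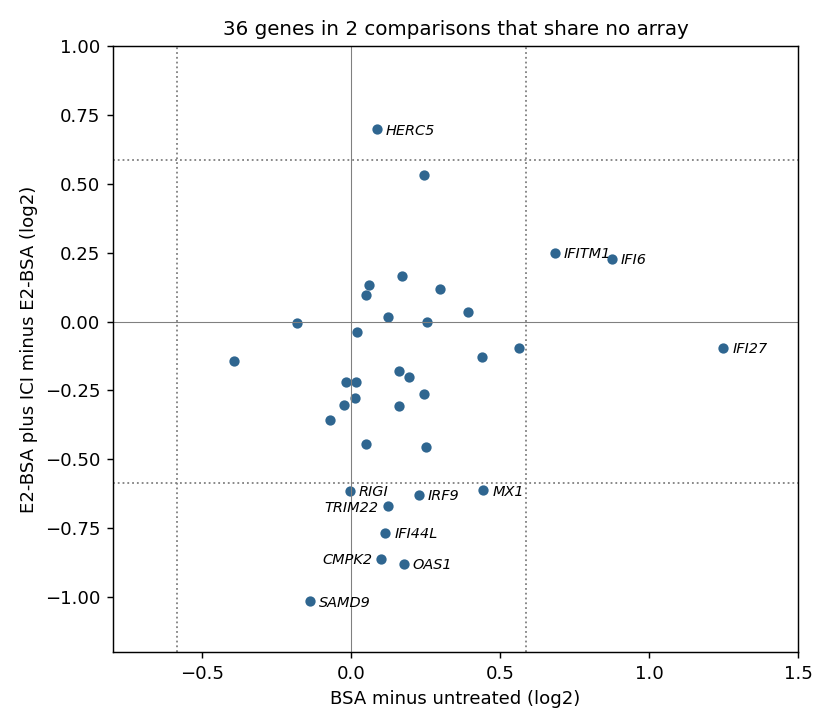
Each point is 1 of the 36 genes, with its difference in BSA minus untreated (log2, horizontal) and in E2-BSA plus ICI minus E2-BSA (log2, vertical), 2 comparisons that share no array; dotted lines mark 1.5-fold. IFI27, IFI6 and IFITM1 lie to the right (1.25, 0.87 and 0.68), and SAMD9, OAS1 and CMPK2 at the bottom (-1.02, -0.88 and -0.86).

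The group thus held at least 2 orders of arrays, which were not fully separate. Over the 8 arrays the values of IFI27 correlated with those of IFITM1 at Pearson r = 0.896, IFI6 at 0.886, ISG15 at 0.791 and BST2 at 0.757, and with those of SAMD9 at 0.072. SAMD9 correlated with RIGI at 0.975, CMPK2 at 0.955, PLSCR1 at 0.950, OAS2 at 0.923, IRF9 at 0.897 and OAS1 at 0.843. Without the ethanol array these values were 0.956, 0.918, 0.921, 0.860, 0.824 and 0.897. SAMD9 and MX2 ran oppositely (-0.745). Of all genes, those most like SAMD9 were IFIT3 (0.996), GGPS1 (0.977) and RIGI, and those most like IFI27 were ERICH5 (0.969), RGS8 (0.956) and FAM3D (0.933), whose ranges over the 8 arrays were 0.28, 0.29 and 0.21. These correlations run over 8 arrays of different conditions, were searched among all genes, and are descriptions.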

How the data were processed

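Per the labels' protocols, biotin-labelled RNA was hybridized to Affymetrix arrays, here of 54675 probe sets. The values deposited by the authors were read as log2 values and lie between -2.27 and 7.85, with a median of 0.00 on every array. The sources used here do not name the summarization, the normalization or the log base, and no value was altered. Of the probe sets, 62 controls were left out, 41091 carried 1 gene, 1801 several and 11721 none. Names were updated through RefSeq (GRCh38.p14, used for names and promoter windows), which matched 41037 of those with 1 gene. A gene is the mean of its probe sets. No filter on low values was possible on centred values. Differences were computed for 17 pairs of arrays with Python 3.11.15 and pandas 2.3.3, and the steps were tested on simulated data.

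The genes and lists were chosen with earlier results of these data known. Genes with a range of at least 1.5-fold are given on every array, genes past 1.5-fold are named in each comparison, and of other lists up to 4 genes each way. Genes named below these limits, and correlations other than those of IFI27 and SAMD9 with their 3 most similar genes, were chosen after their values were seen. The number of arrays limits the precision.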

Additional observations from a re-analysis of the deposited data

How the results depend on the processing

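Alternatives were the median of a gene's probe sets, its probe set with the largest SD, probe sets without a suffix for several transcripts, quantile normalization, probe sets with a range of at least 0.5, a fold of 2, the list without IRF1 and IFI27 and, chosen after seeing the data, the addition of 2 probe sets shared with another gene. A list median was called moved at a change of 0.05 or more. No paired analysis was possible because each condition has 1 array, and for the same reason no array could be left out within a condition. No listed difference or median of at least 0.05 changed sign; of 112 list values 94 stayed within their limits, and of 146 values of single genes 131.

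Of all genes 0.87% were at least 2-fold higher with ethanol, and at most 0.0405% were 2-fold higher, or lower, in the other comparisons named next. A fold of 2 left 2 genes with ethanol, 1 with BSA, 1 for E2-BSA minus BSA, 1 with ICI added, 0 with G15 added and 0 for estradiol minus E2-BSA. Quantile normalization, which by construction pulls in the long tail of the ethanol array, left 2 genes there and gave 2 for estradiol minus untreated, 5 with G15 added and 4 for estradiol minus E2-BSA; IRF1 with ethanol fell to 1.37. The probe set with the largest SD gave 9 genes with ethanol and a median of -0.22 for estradiol minus E2-BSA. The range filter kept 27 genes, and medians became 0.34 with ethanol, -0.061 for estradiol minus untreated, 0.044 for E2-BSA minus BSA, -0.30 with ICI added and -0.29 for estradiol minus E2-BSA. Without suffixed probe sets 31 genes were left, and the median with ICI added was -0.13.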
